A study of Mus musculus with 2 samples.

Results

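The Gata genes encode zinc finger transcription factors that bind the letters GATA in DNA, and the Fog genes Zfpm1 and Zfpm2 (friend of Gata) encode cofactors that bind the Gata proteins rather than DNA. Of these, 7 were looked up by symbol, out of 43346 Ensembl genes: Gata2, Gata3, Gata4, Gata5, Gata6, Zfpm1 and Zfpm2. Gata1 was not among them. The tissue was midbrain of B6NCrl mouse embryos at embryonic day 10.5, from embryos labelled healthy and pooled over both sexes, without any genetic change or treatment. There was 1 group with 2 libraries, which the labels call biological replicates: replicate 1 came from 69 embryos and replicate 2 from 51 embryos, each made from 10 ng of RNA. Each library is a mix of every cell type in the dissected piece.

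In the midbrain, Gata2 is known as the switch that gives cells leaving the cell cycle a GABAergic instead of a glutamatergic fate, acting with the bHLH factor Tal2, and Gata3 follows it in the young GABAergic neurons. Gata2 and Gata3 also act in blood and endothelium, ear, and surface ectoderm. Gata4, Gata5 and Gata6 are the relatives of heart and gut endoderm. Fog proteins mostly turn Gata-bound genes down by bringing in the CtBP corepressors and the NuRD chromatin complex, and Zfpm1 is best known from red cells and platelets, Zfpm2 from heart and gonad.

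Levels are in TPM, a transcript's share of a library corrected for transcript length, so genes can be compared with each other. The deposited bounds of a credible interval of TPM, whose level is not given in the sources used here, stand beside values as the precision of a single library. Replicate 1 held 45531592 expected counts over all Ensembl genes, replicate 2 held 50477623. The midbrain genes Otx2 (138 and 123 TPM in replicates 1 and 2), Dmbx1 (33.3 and 32.7 TPM) and En1 (4.74 and 4.46 TPM) were present in both. Of a pair of hindbrain genes, Hoxb1 was at 0.10 and 0.12 TPM and Hoxa2, which neural crest also expresses, at 0.24 and 1.67 TPM, the higher value in replicate 2.

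Start sites are shown first, because Gata2 was read from a pair of them in both libraries and the share of the distal one differed. RefSeq (GRCm38.p6) gave windows around the start for 4 of the 7 genes, 5 windows in all: a distal and a proximal one for Gata2 and 1 each for Gata3, Gata5 and Zfpm1. There was no entry for Gata4, Gata6 and Zfpm2. The 250 bases before 3 of these starts are printed 5′ to 3′ on the strand of the gene, with CCAAT boxes (CCAAT on either strand) in capitals.
Gata2 distal start, chr6:88193641-88193890, plus strand: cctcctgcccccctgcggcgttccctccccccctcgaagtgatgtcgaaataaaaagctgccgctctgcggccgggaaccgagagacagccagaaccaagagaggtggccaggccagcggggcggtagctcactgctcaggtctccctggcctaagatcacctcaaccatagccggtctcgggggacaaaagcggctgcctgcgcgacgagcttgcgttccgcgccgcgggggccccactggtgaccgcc
Gata2 proximal start, chr6:88198414-88198663, plus strand: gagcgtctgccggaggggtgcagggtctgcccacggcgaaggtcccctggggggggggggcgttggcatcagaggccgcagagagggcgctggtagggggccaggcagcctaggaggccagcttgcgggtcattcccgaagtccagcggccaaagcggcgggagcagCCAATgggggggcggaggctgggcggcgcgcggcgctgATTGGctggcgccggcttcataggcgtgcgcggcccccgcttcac
Gata3 start, chr2:9878601-9878850, minus strand: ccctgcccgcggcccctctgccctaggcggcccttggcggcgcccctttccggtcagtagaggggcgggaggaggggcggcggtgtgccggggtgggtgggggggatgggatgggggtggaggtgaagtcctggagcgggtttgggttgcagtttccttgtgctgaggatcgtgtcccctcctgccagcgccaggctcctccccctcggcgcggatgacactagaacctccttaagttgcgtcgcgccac

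All 3 starts lie in GC-rich sequence. Over the whole 300-base window (250 bases before and 50 after the start), the distal Gata2 window was 69.3% G and C with 32 CpG, the proximal one 73.7% with 29 CpG and that of Gata3 67.3% with 22 CpG, where the median of all 32851 RefSeq windows was 52.7% and 7 CpG. The windows were searched on both strands for a GATA box (GATA with A or T before it and A or G after it), for an E-box (CANNTG, the site of bHLH proteins) and for the CCAAT box. The CCAAT box was chosen after the sequences were seen. Of all windows, 29.8% held a GATA box, 72.3% an E-box and 37.4% a CCAAT box. Gata2's proximal window held a pair of CCAAT boxes, beginning 83 and 45 bases before the start, and an E-box, CAGCTG, at base 18 of the transcript. Its distal window held none of the 3 motifs. Gata3's window held the E-box CAGCTG across its start, beginning 1 base before it, and the single GATA box of the 5 windows, TGATAG at base 37 of the transcript, in capitals here.
Gata3 GATA box: gccgtctTGATAGtttcaga

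No motif overlapped another in these windows. A match of letters describes the window and says nothing of what binds there.

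Among the Gata genes looked up, only Gata2 and Gata3 reached 1 TPM, and the libraries differed in both. Gata2 (ENSMUSG00000015053; chromosome 6, 88193891 to 88207032) was at 20.6 TPM in replicate 1, from 1873 expected counts, and at 9.86 TPM in replicate 2, from 1035. Gata3 (ENSMUSG00000015619; chromosome 2, 9857078 to 9890034) was at 23.95 TPM in replicate 1, from 1972 expected counts, and at 8.92 TPM in replicate 2, from 865. Replicate 1 was the higher library for each gene, and the deposited bounds of the libraries did not overlap. For Gata2 the intervals were 19.3 to 21.1 TPM in replicate 1 and 9.14 to 10.3 TPM in replicate 2. For Gata3 they were 22.8 to 26.9 TPM in replicate 1 and 8.68 to 12.7 TPM in replicate 2. The means were 15.2 TPM ± 7.6 (SD, n = 2) for Gata2 and 16.4 TPM ± 10.6 (SD, n = 2) for Gata3. Those means exceeded the values of 66.3% and 67.4% of 21474 protein-coding genes, and lay below the median of 20.7 TPM among the 12477 protein-coding genes detected at 1 TPM or more in both libraries. In bulk tissue, fewer cells of a type and less RNA per cell cannot be told apart.

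The order of Gata2 and Gata3 was not settled by these libraries. Gata3 stood at 1.16 times Gata2 in replicate 1 and at 0.905 times in replicate 2, a mean ratio of 1.03 ± 0.18 (SD, n = 2). In replicate 1 the bounds of Gata3 lay above those of Gata2. In replicate 2 they overlapped. Part of Gata3's gene level came from a 344-base transcript, Gata3-204, which held 9.67% and 7.23% of the gene's TPM on 16.7 and 5.30 expected counts. It is annotated from 9877835 to 9887784 on the minus strand, so it begins upstream of the Gata3 start shown above, base 9878600. Taking the full-length transcript Gata3-201 alone, with 21.3 and 8.21 TPM, Gata3 stood at 1.03 times Gata2 in replicate 1, where its bounds (19.9 to 21.8 TPM) overlapped those of Gata2, and at 0.833 times in replicate 2. That transcript held 98.9% and 99.4% of the gene's expected counts.

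**Figure D1:**
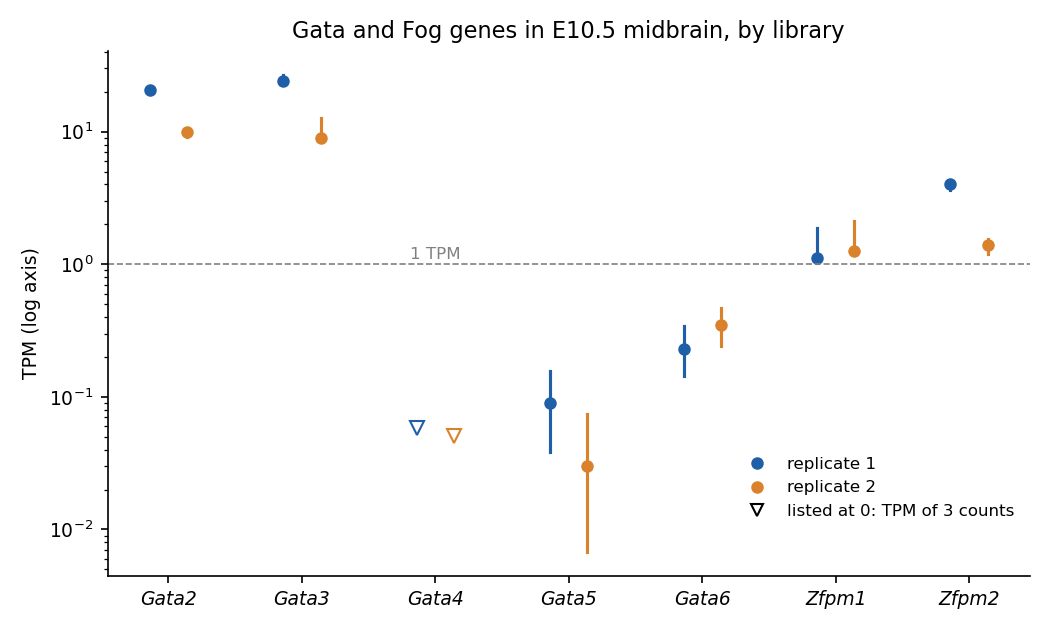
TPM (log axis) of the 7 genes in replicate 1 (blue) and replicate 2 (orange), with the deposited credible bounds as lines and Gata4, listed at 0, drawn as open triangles at the TPM of 3 counts. Gata2 and Gata3 lie near 20 and 24 TPM in replicate 1 and near 10 and 9 TPM in replicate 2, Zfpm1 and Zfpm2 above the dashed line at 1 TPM, and Gata4, Gata5 and Gata6 below it.

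Gata2 was read from both of its starts. The mouse gene is known for a distal and a proximal first exon, named IS and IG, which are spliced to the same coding exons, so the protein is the same. Transcript Gata2-202 begins at the distal start, base 88193891, where its annotated first exon is 110 bases long. Transcript Gata2-201 begins at the proximal side: the annotated first exon spans 88198334 to 88198881 and holds the RefSeq start at 88198664. Exons 2 to 5 have the same coordinates in both transcripts, and exon 6 ends 2 bases apart.

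The distal transcript was at 8.45 TPM in replicate 1 (bounds 5.99 to 10.0) and at 1.5 TPM in replicate 2 (bounds 0.801 to 2.40). The proximal transcript was at 12.2 TPM in replicate 1 (bounds 10.2 to 14.2) and at 8.36 TPM in replicate 2 (bounds 7.19 to 9.01). Both transcripts were higher in replicate 1, without overlap of the bounds, and the proximal one was the more abundant in both libraries. By TPM the distal transcript was 5.63 times as high in replicate 1 as in replicate 2, and the proximal transcript 1.45 times.

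The distal start therefore held unequal shares of Gata2. It made up 41.0% of the gene's TPM in replicate 1 and 15.2% in replicate 2, a mean of 28.1% ± 18.3 (SD, n = 2). In expected counts that was 753 of 1873 and 153 of 1035, with a deposited posterior SD of 87.9 and 40.4 counts, or 4.69 and 3.91 percentage points of the gene's counts. Only reads that touch a first exon tell the transcripts apart, and in the deposited transcript lengths those exons make up about 108 bases on the distal side and 218 on the proximal side. With 1 library on each side the difference in share has no replicate check, and the labels link the manual of a SMARTer Ultra Low kit, whose coverage of 5′ ends was not tested.

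**Figure D2:**
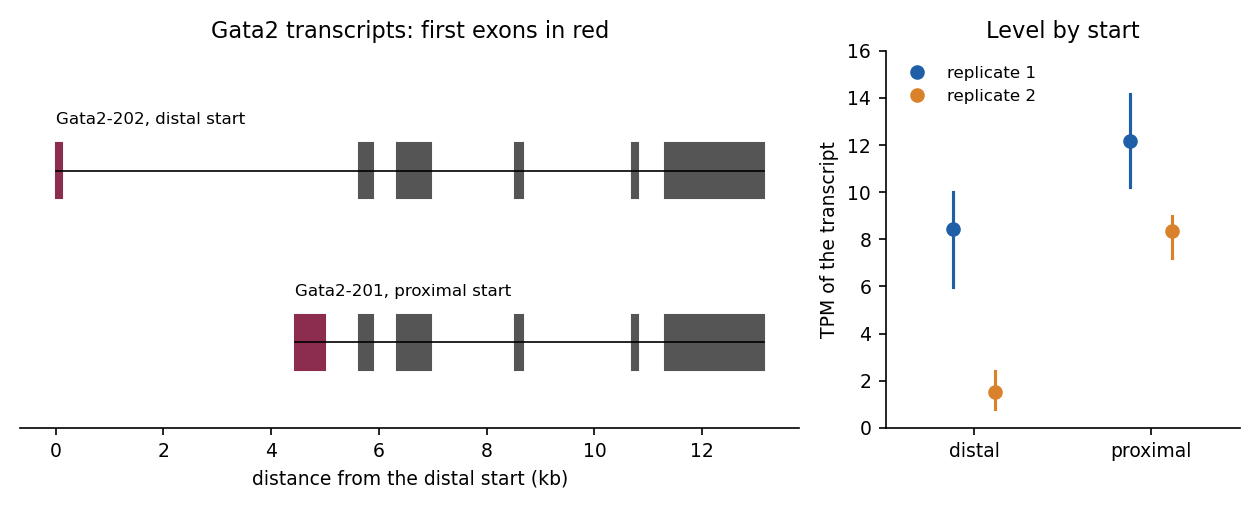
Left, the exons of both Gata2 transcripts as GENCODE M21 draws them, by distance in kb from the distal start, with first exons in red. Right, TPM of each transcript with the deposited credible bounds, where the distal transcript is at 8.45 TPM in replicate 1 (blue) and 1.5 TPM in replicate 2 (orange).

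The Gata relatives of heart and gut were at or near 0. Gata4 (chromosome 14, 63198922 to 63271692) had no counts in either library, which allows up to 0.0583 TPM in replicate 1 and 0.0509 TPM in replicate 2 taking 3 counts as the upper limit, for counting error only. The deposited upper bounds of Gata4, which has 6 annotated transcripts, all at 0, were 0.434 and 0.379 TPM. Its deposited lower bounds, 0.0461 and 0.0391 TPM, lay above the listed 0. For a gene without counts the bounds thus do not hold the listed value. Gata5 (chromosome 2, 180325133 to 180334699) was at 0.09 TPM from 8 counts in replicate 1 and at 0.03 TPM from 3 counts in replicate 2. Gata6 (chromosome 18, 11052064 to 11085635) was at 0.23 TPM from 21 counts and at 0.35 TPM from 36 counts. None of these 3 genes reached 1 TPM in a library. Gata6 was above Gata5 in both, with bounds that overlapped in replicate 1 (0.144 to 0.340 against 0.0381 to 0.157 TPM) and were apart in replicate 2 (0.242 to 0.465 against 0.00679 to 0.0738 TPM).

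Most markers of the tissues where these relatives act were low as well. Of 12 heart genes 2 reached 1 TPM in both libraries, Mef2c at 4.71 and 4.79 TPM and the atrial myosin light chain gene Myl7 at 2.15 and 3.15 TPM, and the list summed to 9.16 and 10.3 TPM. The heart factors Nkx2-5 and Hand2 were listed at 0 in both. Of 10 gut and liver endoderm genes 3 reached 1 TPM in both: Sox17, also an endothelial gene, the floor plate gene Foxa1 and Cldn6. Cdx2 and Alb were listed at 0. This list summed to 12.6 and 19.0 TPM, and Cldn6, a tight junction gene of early epithelia, was at 2.81 TPM in replicate 1 and 8.15 TPM in replicate 2. Gata6 was nominally higher in replicate 2 too; whether epithelial cells play a part in its counts was not tested.

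The Fog cofactors were present at low levels. Zfpm2 (chromosome 15, 40655035 to 41104592) was at 4.00 TPM from 573 counts in replicate 1 and at 1.39 TPM from 228 counts in replicate 2, with bounds of 3.60 to 4.25 and 1.20 to 1.56 TPM. Zfpm1 (chromosome 8, 122282141 to 122337251) was at 1.11 TPM from 107 counts and at 1.26 TPM from 139 counts, with bounds of 1.03 to 1.87 and 1.21 to 2.13 TPM. Zfpm2 was clearly the higher Fog gene in replicate 1, 3.60 times Zfpm1. In replicate 2 the ratio was 1.10 and the bounds overlapped. By the deposited posterior mean TPM, Zfpm2 was at 3.93 and Zfpm1 at 1.42 TPM in replicate 1. In replicate 2 the order was reversed by that measure, with Zfpm2 at 1.37 and Zfpm1 at 1.63 TPM. Only a single transcript of Zfpm2 was quantified, so its share was fixed by the annotation. Among the annotated Zfpm1 transcripts, Zfpm1-201 held 100% of the gene's TPM in both libraries. In posterior mean counts it held 98.9% in replicate 1 and 97.6% in replicate 2.

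Gata2 and Gata3 RNA exceeded Fog RNA per transcript, while Gata4, Gata5 and Gata6 lay below both Fog genes in both libraries. Gata3 was 5.99 and 6.42 times as high as Zfpm2 in replicates 1 and 2, a ratio that varied little between the libraries (6.20 ± 0.30, SD, n = 2). Gata2 was 5.15 and 7.09 times as high as Zfpm2. Against Zfpm1 the ratios moved more, from 21.6 to 7.08 for Gata3 and from 18.6 to 7.83 for Gata2. Gata2 and Gata3 together made up 89.1% and 86.1% of the summed TPM of the 7 genes, which was 49.98 and 21.8 TPM.

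How far the libraries differed was tested on scaled counts of every gene with a mean of at least 1 TPM. The counts of 14768 genes were set against the library sizes by an exact binomial test (two-sided), and p-values were adjusted by Benjamini-Hochberg; with 1 library on each side this compares these libraries and covers counting error only. A gene was called with an adjusted p below 0.05 and a 2-fold ratio. Of all genes tested 2.32% were called, 1.66% as higher in replicate 1 and 0.664% as higher in replicate 2. Of the 7 genes, 4 could be tested and 2 were called, both as higher in replicate 1. With no fold minimum 53% of all genes tested and 3 of these 4 passed. The 7 genes were chosen with results of these libraries known, so their count is a description.

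Zfpm2 had the largest ratio of the 4, at 2.72 times in replicate 1 over replicate 2 (95% interval 2.33 to 3.18; log2 1.44 ± 0.11, counting SE; exact binomial test, adjusted p = 7.71e-40). Gata3 followed at 2.47 times (2.28 to 2.67; log2 1.30 ± 0.06; exact binomial test, adjusted p = 3.87e-116). Gata2 was at 1.96 times (1.81 to 2.11; log2 0.97 ± 0.06; exact binomial test, adjusted p = 1.07e-68), just under the 2-fold minimum and so not called. By TPM without further scaling, where the median log2 ratio of all genes tested was 0.07, it was 2.09 times, past 2-fold. Zfpm1 did not pass, at 0.834 times (0.641 to 1.08; exact binomial test, adjusted p = 0.255). Gata5, at 2.63 times (0.692 to 16.9), and Gata6, at 0.637 times (0.350 to 1.11), were too low to be tested, and Gata4 has no ratio.

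Genes of the GABAergic lineage were higher in the same library. All 9 of the 10 listed genes that could be tested lay above 0 on the log2 scale, 4 were called, and the median log2 ratio was 0.99, where that of all genes tested was -0.01. The called genes were Sox14, a transcription factor gene of GABAergic neurons, at 8.54 and 1.08 TPM; Lhx1, a LIM homeobox gene, at 16.7 and 4.72 TPM; and the GABA-synthesizing enzyme genes Gad1, at 6.64 and 2.2 TPM, and Gad2, at 11.1 and 3.34 TPM. Their ratios were 8.47 (6.54 to 11.3), 3.35, 3.61 and 3.18. The tested genes of the list that were not called had smaller ratios. Helt, the bHLH factor that precedes Gata2, was at 34.8 and 16.5 TPM, a ratio of 1.99 (1.82 to 2.17). Lhx5, a relative of Lhx1, was at 26.45 and 20.54 TPM, a ratio of 1.22 (1.14 to 1.30). Tal2 was at 28.3 and 18.8 TPM (ratio 1.43) and Tal1 at 4.35 and 2.25 TPM (1.86). Slc32a1, the vesicular GABA transporter gene, stood at 0.58 and 0.21 TPM.

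Other neuronal genes lay on the same side. Of 14 genes of newborn neurons, all 14 lay above 0, with a median log2 ratio of 0.60, and 2 were called, Dcx (ratio 2.12) and Myt1 (2.16). Of 11 glutamatergic lineage genes tested, 10 lay above 0 with a median of 0.46, and the vesicular glutamate transporter gene Slc17a6 was called, at 12.4 and 5.08 TPM. The median of 12 progenitor genes was 0.08, and none was called. Summed TPM of the newborn neuron list was 1808 in replicate 1 and 1125 in replicate 2, and that of the progenitor list 2982 and 2484. Whether a different share of neurons in the pools plays a part in the ratios of Gata2, Gata3 and Zfpm2 was not tested.

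**Figure D3:**
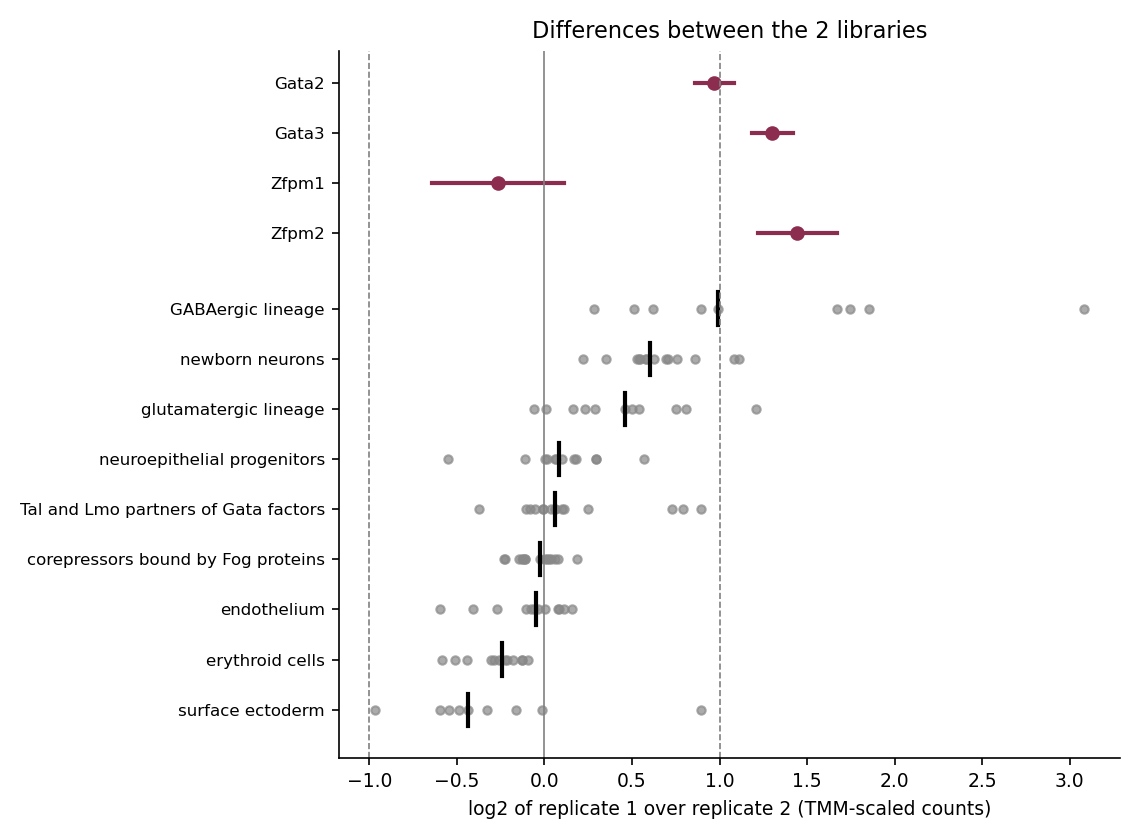
Log2 ratio of replicate 1 over replicate 2 in TMM-scaled counts. Red points are Gata2, Gata3, Zfpm1 and Zfpm2 with 95% intervals for counting error, grey points the tested genes of 9 lists, black bars the list medians, and dashed lines mark 2-fold; Gata3 (1.30) and Zfpm2 (1.44) lie beyond the line, Gata2 (0.97) beside it and Zfpm1 (-0.26) near 0.

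Blood, vessels and surface ectoderm are other cells that could carry Gata and Fog RNA here. None of their tested marker genes was called, which is near the 2.32% of all genes tested for lists of this size. All 12 erythroid genes lay below 0, the median log2 ratio was -0.24, and they summed to 11446 TPM in replicate 1 and 13388 TPM in replicate 2, led by the embryonic globin gene Hbb-y. Of 7 megakaryocyte and platelet genes tested, 3 lay above 0 with a median of -0.04, and the list, led by Pf4, summed to 80.5 and 63.4 TPM. Of 12 endothelial genes 5 lay above 0, with a median of -0.05 and sums of 213 and 230 TPM. Of 9 surface ectoderm genes tested, 1 lay above 0, with a median of -0.44 and sums of 59.1 and 75.3 TPM. At 1 TPM in both libraries, 12 of 12 erythroid, 6 of 8 megakaryocyte and platelet, 12 of 12 endothelial and 9 of 12 surface ectoderm genes were detected. How much of the RNA of Gata2, Gata3 and Zfpm1 came from them was not tested.

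Other sites of Gata expression gave mixed values. Of 10 otic vesicle genes 4 reached 1 TPM in both libraries, among them Otx1 and Lmx1a, which the midbrain expresses too, while Oc90 and Hmx3 stood at or below 0.06 TPM. Sox10, a gene of the otic vesicle and of neural crest, was called as higher in replicate 2, at 0.46 and 2.15 TPM. It was the single called gene of the 12 head mesenchyme and neural crest genes, whose median log2 ratio was 0.13. That list summed to 836 TPM in replicate 1 and 589 TPM in replicate 2, led by collagen genes such as Col1a1 at 149 and 72.6 TPM (ratio 1.95). Of its 12 genes 6 lay above 0. The factor genes Prrx1 (0.84), Twist1 (0.84), Foxc2 (0.78), Alx4 (0.90) and Foxc1 (0.99) had ratios below 1. The interval of Foxc1 (0.846 to 1.16) held 1. Another factor gene of the list, Snai2, lay above 1 at 1.21 (1.09 to 1.35), as did Pdgfra at 1.22. The part of these cells in the ratios of Gata2, Gata3 and Zfpm2 was not tested. Of 6 early haematopoietic and mast cell genes 3 were detected, and the mast cell gene Cpa3 had 8 counts in replicate 1 and none in replicate 2.

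Lists for neuron types that use Gata2 and Gata3 outside the midbrain were detected in part, 3 of 6 serotonergic genes and 5 of 8 genes of the V2b interneuron programme. In the serotonergic neurons of the hindbrain Gata2 and Gata3 act with Fev, and Fev was at 0.31 TPM from 11 counts in replicate 1 and at 0.04 TPM from 1 count in replicate 2. The serotonin genes Tph2 (0.13 and 0.06 TPM) and Slc6a4 (0.37 and 0.38 TPM) were also below 1 TPM. The other 3 genes of that list, which further cell types express, were detected: Slc18a2 at 12.7 and 10.4 TPM, Nkx2-2 at 9.46 and 7.82 TPM and Lmx1b at 2.3 and 2.63 TPM. In the spinal cord, Foxn4 turns on Gata2 and Tal1 in V2b interneurons, while Lhx3 belongs to their V2a sisters. Foxn4 was present here at 9.39 and 6.15 TPM, as were the progenitor genes Nkx6-2 (73.2 and 50.9 TPM) and Nkx6-1 (9.06 and 7.27 TPM) and the Notch ligand gene Dll4 (4.83 and 4.86 TPM), and Lhx3 was at 0.30 and 0.42 TPM.

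RNA of partners that link Gata proteins to Tal factors was present in both libraries. Which cells of the mix carried it was not tested. All 15 were detected, where 12477 of all 21474 protein-coding genes were. None was called, which is near the 2.32% of all genes tested for a list of this size. The median log2 ratio of the list was 0.06. The E-proteins, with which Tal factors pair, led the list: Tcf3 at 162 and 163 TPM and Tcf12 at 151 and 139 TPM. The bridging factor gene Ldb1 was at 68.7 TPM in both libraries, and the LIM-only gene Lmo2 stood at 16.3 and 15.8 TPM. Its relative Lmo1 had 42.6 TPM in replicate 1 against 24.3 TPM in replicate 2, a ratio of 1.66 (1.51 to 1.81). The lowest members were Tal1 itself and Cbfa2t3, a corepressor gene, at 3.77 and 2.04 TPM.

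Corepressors that Fog proteins bind were all detected. None of the 15 was called, which is near the 2.32% of all genes tested for a list of this size. Their ratios lay between 0.853 (Mta1) and 1.14 (Chd3), and the median log2 ratio was -0.02. The CtBP gene Ctbp1 was at 364 and 330 TPM, the NuRD histone chaperone gene Rbbp4 at 445 and 442 TPM, and the NuRD remodeller gene Chd4 at 86.3 and 77.1 TPM. Mbd2, the alternative to Mbd3 in NuRD, was the lowest at 5.52 and 4.83 TPM. Per transcript, Ctbp1 was thus well above both Fog genes in both libraries.

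**Figure D4:**
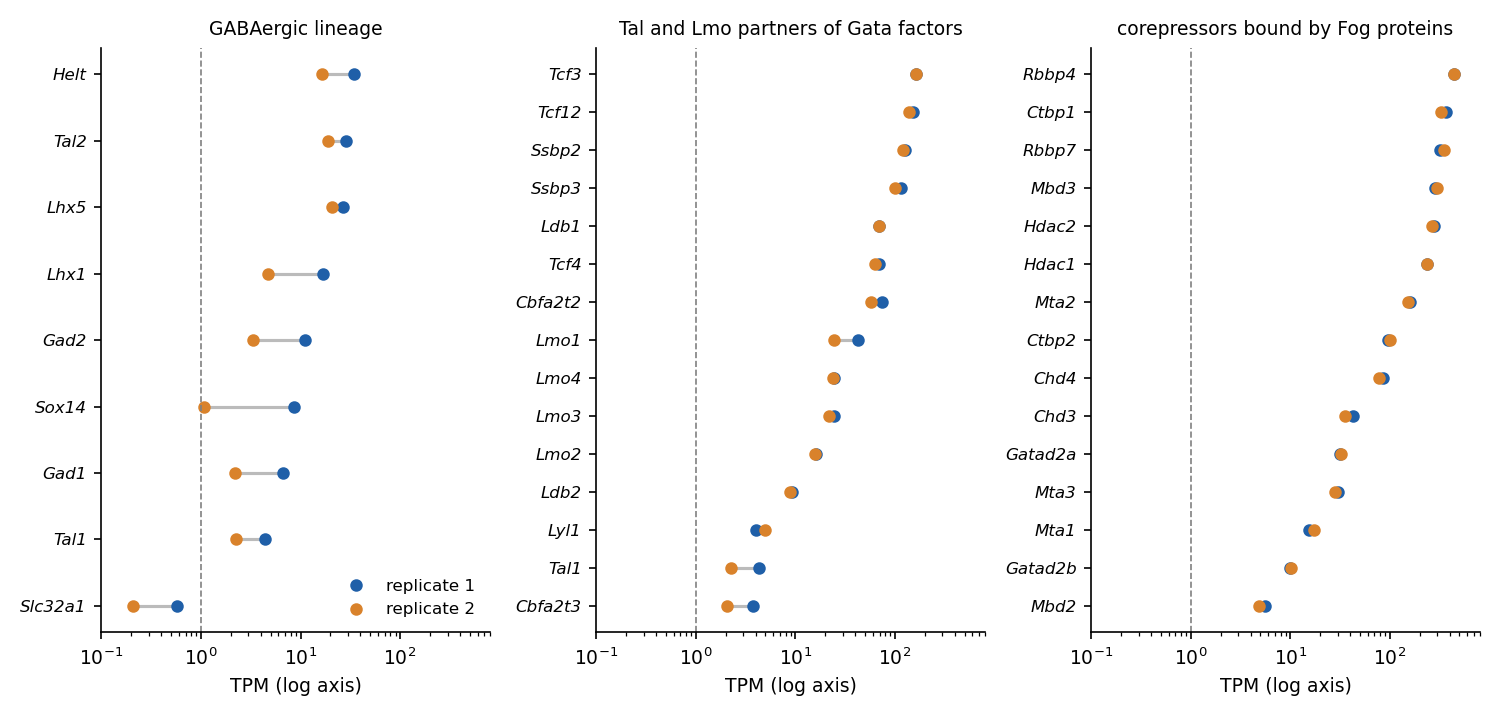
TPM (log axis) of 9 GABAergic lineage genes, Tal and Lmo partners of Gata factors and corepressors bound by Fog proteins in replicate 1 (blue) and replicate 2 (orange), with the dashed line at 1 TPM. Every GABAergic gene drawn is higher in replicate 1, up to 8.54 against 1.08 TPM for Sox14, while Rbbp4 stands at 445 and 442 TPM.

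Other genes with a GATA-type zinc finger, 5 of them also NuRD genes of the list before, were expressed too. All 9 were detected, with a median log2 ratio of 0.01. None was called, which is near the 2.32% of all genes tested for a list of this size. Mta2, a NuRD subunit gene, was the highest at 161 and 151 TPM, Gatad1 followed at 78.0 and 74.0 TPM, and the repressor gene Trps1 was at 16.3 and 13.4 TPM, close to the means of Gata2 and Gata3. Zglp1, a gene of the germ line, was the lowest at 1.23 and 1.11 TPM.

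Some annotated genes overlap these 7. Gm13256, antisense to Gata3, shares 155 exonic bases with it and had 4 and 2 counts, and 9230102O04Rik shares 77 and was at 0.98 and 0.40 TPM. Gata5os, antisense to Gata5, had 0 and 1 counts, and 1010001N08Rik, antisense to the start of Gata6, likewise 0 and 1. Whether strand was kept is taken as unknown, so reads in these stretches cannot be assigned to a strand. Gm20388, a long gene model that spans Zfpm1 at 6.88 and 6.57 TPM, shares no annotated exonic base with it.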

How the data were processed

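Per the file headers, the authors derived a gene and a transcript table of each library from transcriptome alignments on mm10 with GENCODE M4; for aligner and quantifier, the names were not given in the sources used here. Per the labels, the assay is total RNA-seq, and a SMARTer Ultra Low kit manual is linked. The deposited expected counts are estimates that split shared reads. The deposited TPM and FPKM values are scaled by effective length (length less 99 bases). The deposited credible bounds are a signal in TPM units. The deposited isoform percent is a transcript's share of its gene's TPM.

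GENCODE M21 (GRCm38, as mm10) gave names and positions for 42462 of 43346 genes. The 97 spike-in and 26248 tRNA rows were left out of totals and tests. Rounded counts were scaled by TMM factors (edgeR 4.0.16), 1.01 and 0.988, and each gene with a mean of at least 1 TPM was tested with a two-sided exact binomial test, with 0.5 added to counts in ratios. Intervals hold counting error alone. The test was first tried on simulated data. DESeq2 1.42.0 size factors, TPM, FPKM, other filters and folds were alternatives. Python 3.11.15 and R 4.3.3 were used.

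The 7 genes and the 18 companion lists were chosen with earlier results of these data known. Named were all 7 genes, and of each list up to 4 highest, 2 lowest and the called genes. Ldb1, Lmo1, Lmo2, Chd3, Chd4, Mta1, Trps1, Prrx1, Twist1, Foxc2, Alx4, Snai2, Pdgfra and the 5 genes of the tissue check were named outside that rule and chosen after values were seen. Some list genes are counted but not reported here by name. With 2 libraries a pattern is 1 ratio, so no gene was ranked for likeness to another.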

Additional observations from a re-analysis of the deposited data

How the results depend on the processing

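No paired analysis was possible because the series has 1 group, so no groups share replicate numbers. Of the 7 genes, 4 were detected at 1 TPM, and 2 at 2 TPM, 2 at 5 TPM and 2 at an FPKM of at least 1, where Zfpm1 and Zfpm2 dropped out. The number of genes called between the libraries was 343, and 1010 with no filter on low values, 99 at a mean of at least 5 TPM, 1112 at 1.5-fold and 7829 with no fold minimum; of the 7 genes 1 was called at a mean of at least 5 TPM, where Zfpm2 was no longer tested. Gata2 was called under 4 alternatives: TPM scaling (2.09 times), FPKM scaling (2.02 times), a 1.5-fold minimum and no fold minimum. Gata3 and Zfpm2 were called under every alternative that tested them, and Zfpm1 under none. The share of Gata3-201 in its gene was 90.5% by isoform percent, 98.5% in posterior mean counts and 99.1% in expected counts; neither kind of count is per length. By the posterior mean, Gata4 was at 0.205 TPM, although it had no counts in either library, and Zfpm1 was at 1.53 TPM. The mean ratio of Gata3 to Gata2 ranged from 0.905 to 1.16 without replicate 1 or 2, and was 0.934 with Gata3-201 alone, an alternative added after seeing the data.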
